A study of Mus musculus with 2 samples.

Results

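The mitotic class of mouse embryonic stem cells (ESCs) grown in serum/LIF medium held 1510 cells, which were compared with a low-score class of 3020 cells from the same library. Both classes were chosen by the transcripts of 8 mitotic genes, Ccnb1, Cdc20, Plk1, Aurka, Cenpa, Ube2c, Hmmr and Cenpe. The score of a cell was the sum of its unique molecular identifiers (UMIs, 1 for each captured transcript) of these genes per 10000 UMIs, and the classes were the highest 15% and the lowest 30% of cells by score. They were taken from 10065 cells with at least 1000 detected genes, at most 10% of UMIs from mitochondrial genes and no UMI of Col1a2, a fibroblast collagen, or Gata6, a primitive endoderm factor. The ESC library held 13184 barcodes, and both libraries of the series together held 25611.

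Single-cell RNA sequencing was performed on ESCs (0 h) and on epiblast-like cells harvested at 48 h (48h-EpiLCs), with 1 library per stage. Each library was an equal mixture of wild-type (WT) cells carrying the ROSA mT/mG reporter, which expresses tdTomato, and Cnot8 knockout (KO) cells made by CRISPR/Cas9 targeting of exon 2, both of ICR background. Cnot8 encodes an enzyme that removes poly(A) tails from mRNAs as part of Ccr4-Not. The labels place the serum/LIF ESCs on feeder-coated dishes. The methods describe feeder-free culture for ESCs in another medium, 2i/LIF, and name mitomycin C-inactivated mouse embryonic fibroblasts as feeder cells. The 48h-EpiLCs were grown in N2B27 with activin A, bFGF and KSR on Matrigel. The labels gave the genotype of both libraries as wild type, while their titles and the methods of the study state the mixture. With 1 library per stage there was no replicate and no test. A gene was therefore counted as higher or lower when the log2 ratio of its summed counts, scaled to equal class totals (CPM) with 1 CPM added, was at least 0.32 in size, among 7553 genes with a mean of at least 10 CPM over the 2 classes. Intervals are exact 95% intervals and cover counting error only, not the spread between cultures.

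During the cell cycle, Cdk1 with cyclin B drives entry into mitosis, Plk1 and the Aurora kinases build the spindle and control attachment of chromosomes, and the anaphase-promoting complex with its activator Cdc20 and its ubiquitin-conjugating enzyme Ube2c ends mitosis by destroying cyclin B. Transcripts of these genes accumulate through G2 and fall after division, while transcripts of replication-dependent histones are made during S phase and are degraded when DNA synthesis ends. ESCs have a short G1 phase, so most cells of a culture are in S phase or G2 at any moment, and their transcript levels change gradually along the cycle. Many genes with a late peak carry a cell cycle homology region, with the core letters TTTGAA, and nearby CCAAT boxes in their promoters.

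Promoters of 5 score genes and of Cdk1 and Nusap1, which followed the score without being part of it, are shown here because most score genes share these letters near their start sites. The windows run from 120 bases before to 50 bases after the start of the gene, 5′ to 3′ on the strand of the gene, from RefSeq on GRCm38.p6. Capitals mark TTTGAA and CCAAT, or their reverse complements TTCAAA and ATTGG.
Ube2c (chr2:164769809-164769978, plus strand): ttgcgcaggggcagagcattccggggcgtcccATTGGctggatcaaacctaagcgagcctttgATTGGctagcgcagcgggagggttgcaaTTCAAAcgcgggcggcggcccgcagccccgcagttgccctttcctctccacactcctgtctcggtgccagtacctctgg
Aurka (chr2:172370521-172370690, minus strand): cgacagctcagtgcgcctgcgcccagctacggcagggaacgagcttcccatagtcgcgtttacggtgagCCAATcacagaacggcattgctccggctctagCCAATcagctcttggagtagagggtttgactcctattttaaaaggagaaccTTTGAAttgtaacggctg
Plk1 (chr7:122159315-122159484, plus strand): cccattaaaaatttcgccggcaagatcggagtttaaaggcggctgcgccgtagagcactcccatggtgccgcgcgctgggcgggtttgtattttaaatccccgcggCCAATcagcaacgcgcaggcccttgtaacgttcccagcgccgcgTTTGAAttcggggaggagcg
Cdc20 (chr4:118437294-118437463, minus strand): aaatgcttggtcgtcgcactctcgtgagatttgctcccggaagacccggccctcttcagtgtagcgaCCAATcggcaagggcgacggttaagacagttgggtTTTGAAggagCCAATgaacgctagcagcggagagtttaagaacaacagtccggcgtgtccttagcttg
Ccnb1 (chr13:100786437-100786606, minus strand): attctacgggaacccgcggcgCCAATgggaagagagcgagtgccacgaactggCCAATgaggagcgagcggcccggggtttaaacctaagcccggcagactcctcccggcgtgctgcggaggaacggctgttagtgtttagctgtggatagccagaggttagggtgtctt
Cdk1 (chr10:69352863-69353032, minus strand): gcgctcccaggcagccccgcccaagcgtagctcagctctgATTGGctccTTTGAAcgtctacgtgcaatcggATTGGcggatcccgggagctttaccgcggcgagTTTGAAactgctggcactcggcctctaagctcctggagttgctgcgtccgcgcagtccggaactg
Nusap1 (chr2:119618178-119618347, plus strand): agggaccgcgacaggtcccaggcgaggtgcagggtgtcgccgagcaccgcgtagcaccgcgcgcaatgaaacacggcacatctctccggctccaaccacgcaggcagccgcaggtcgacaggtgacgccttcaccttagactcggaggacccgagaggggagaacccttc

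Within the full window of 250 bases before to 50 after the start, TTTGAA was present on either strand in 6 of 8 score genes, and was absent from Ccnb1 and Cenpe. It was present in 55 of 96 mitotic genes outside the score with a promoter in RefSeq (57.3%), in 3 of 29 genes of DNA replication (10.3%), in 14.2% of the 6072 measured genes with a promoter and in 17.9% of all 32851 promoters. CCAAT was present on either strand in all 8 score genes, in 68.8% of the mitotic genes, in 58.6% of the replication genes, in 44.3% of the measured genes and in 37.4% of all promoters. Both motifs were present in 45.8% of the mitotic genes and in 6.21% of the measured genes. Occurrences of the 2 motifs can overlap by 1 letter at most, and a match is a match of letters, not a site. Nusap1, whose difference in WT cells was among the largest outside the score, held neither motif in its 300 bases.

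The lowest score in the mitotic class was 22.897 and the highest score below it was 22.896. The highest score in the low-score class was 13.866 and the lowest above it was 13.868. The median score was 25.5 in the mitotic class, with a maximum of 51.4, and 11.0 in the low-score class, against 16.9 in all cells. The scores thus formed 1 continuous distribution, and the classes were its ends rather than separate groups of cells. A cell had a median of 20 UMIs of the 8 genes, and the variance of the score was 2.27 times that of Poisson counting with equal levels in all cells, or 2.86 times in WT-annotated and 1.69 times in KO-annotated cells.

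As a description of the choice, the mitotic class had 10.1 UMIs of Ube2c per cell against 3.11 in the low-score class, 5.58 against 2.12 of Ccnb1 and 4.95 against 2.06 of Cdc20. Cenpa, the centromeric histone, had 3.04 against 1.24 UMIs per cell, and Hmmr, a spindle protein, had 3.54 against 1.27. The kinases Plk1 and Aurka and the kinetochore motor Cenpe had 1.90 against 0.669, 2.11 against 0.697 and 2.02 against 0.782. No score gene was absent from the low-score class.

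To separate the level of a gene from the counts that chose the cells, the UMIs of each cell were divided at random and evenly between a set that chose the classes and a set that only gave values. The summed score genes were at 2109 CPM in the mitotic class and 1403 CPM in the low-score class in the set that was not used to choose, a log2 ratio of 0.59 (0.56 to 0.62). The ratio was 1.61 in the set that chose the classes. Ube2c had a log2 ratio of 0.77 (0.72 to 0.83) in the unused set and Cdc20 had 0.41 (0.34 to 0.48). For classes chosen in this way, most of the summed score genes' log2 ratio was thus not found in the unused counts. Fewer UMIs chose these classes than chose the reported ones, so the gap does not measure the part of the choice in the reported ratios. Cdk1, which was not in the score, differed by 0.59 (0.52 to 0.67) in the unused set, and Nusap1, which bundles spindle microtubules, by 0.79 (0.69 to 0.91).

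**Figure D1:**
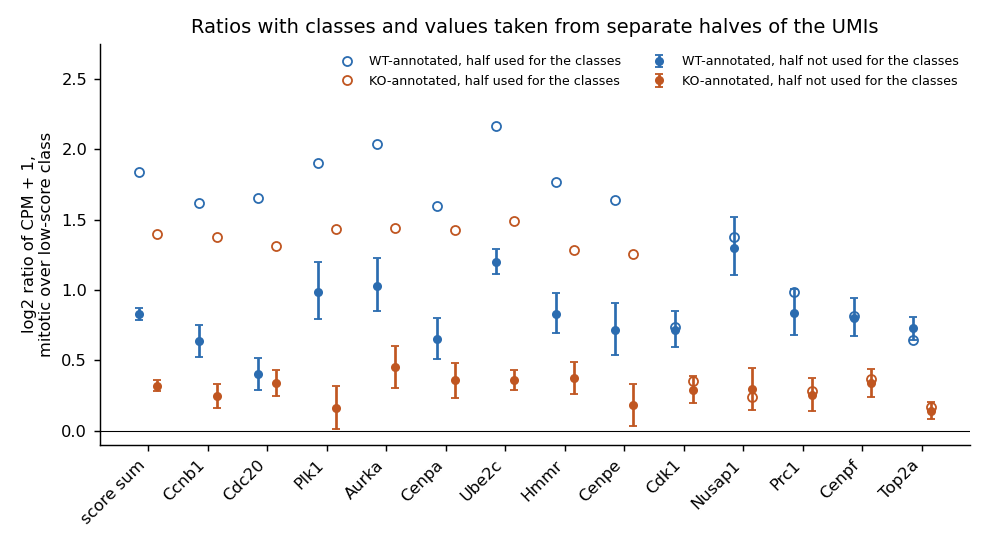
Log2 ratio of CPM + 1 of the mitotic over the low-score class (vertical axis) for the summed score and for single genes, within WT-annotated and KO-annotated cells. Filled points with exact 95% counting intervals are from the UMIs not used for the classes and open points from the UMIs used; the score sum is 0.83 against 1.84 in WT-annotated cells and 0.32 against 1.40 in KO-annotated cells, whereas Cdk1, Nusap1, Prc1, Cenpf and Top2a lie close together in both sets.

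The lines of the mixture were not evenly divided between the classes. Cells were annotated by clusters built without cell cycle, pluripotency and line marker genes. WT-annotated clusters (3710 cells) had a tdTomato UMI in 10.8 to 12.1% of cells and 4.99 to 6.21 CPM of Y-linked genes, and KO-annotated clusters (5437 cells) had 0 to 0.578% and 83.3 to 138 CPM, while 918 cells stayed unassigned. Among annotated cells, the KO share was 72.4% (69.98 to 74.7%) in the mitotic class and 35.7% (33.9 to 37.6%) in the low-score class. Of WT-annotated cells 10.4% (9.47 to 11.5%) were in the mitotic class and 47.1% in the low-score class. Of KO-annotated cells 18.7% (17.6 to 19.7%) and 17.9% were in these classes. WT-annotated cells had a median score of 14.3 and KO-annotated cells of 18.3. A difference between the classes over both lines together therefore also held a difference between the lines, and the rule was applied again within each line. Genotype, reporter and sex chromosomes cannot be told apart in this mixture, and in a mixture of 1 culture each the line and its clone cannot be told apart.

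**Figure D2:**
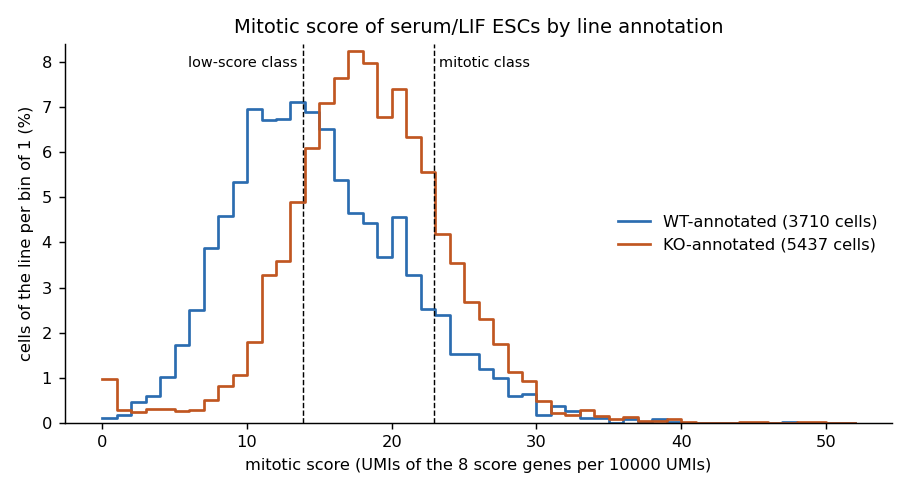
Percentage of the cells of a line (vertical axis) in each bin of 1 of the mitotic score (horizontal axis, UMIs of the 8 score genes per 10000 UMIs), for 3710 WT-annotated and 5437 KO-annotated ESCs. The KO-annotated cells lie to the right, with a median of 18.3 against 14.3, and no gap separates the classes.

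Depth also ran along the score. The median was 12163 UMIs per cell in the mitotic class and 10888.5 in the low-score class, a ratio of 1.12 (1.08 to 1.16). Within lines the medians were 14228 and 11042 UMIs in WT-annotated cells and 11583.5 and 10522 in KO-annotated cells. Mitochondrial genes took 3.81% and 4.13% of the summed UMIs of the mitotic and low-score classes, and 5.76% and 7.45% of their cells were among the highest 10% of doublet scores. A few barcodes, 41, were shared by both libraries. Fibroblast markers summed to 16.1 CPM in the mitotic class and 26.1 CPM in the low-score class over 12 genes, with Col1a2 at 0 by the rule. Primitive endoderm markers summed to 244 and 274 CPM, most of it Sparc, with Gata6 at 0 by the rule. The part of depth and of these cells in the results was not tested beyond the alternatives given below.

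Cells with at least 2 UMIs of Acta2, Tagln and S100a4, which encode proteins of contractile and motile cells, stood apart in the low-score class. Within WT-annotated cells they were 4.31% of the mitotic and 3.41% of the low-score class, and within KO-annotated cells 5.02% and 12.5% (10.9 to 14.2%). Of 116 KO-annotated cells with a score under 5 they were 74.1% (65.2 to 81.8%), and of 87 such WT-annotated cells 4.60%. A cluster of 173 cells that was annotated KO by its 83.3 CPM of Y-linked genes held 150 of them, and 144 of its cells fell into the KO low-score class. It had 1109 CPM of Acta2 and 68.3 CPM of the fibroblast collagen Col1a1, while Pou5f1 was at 42.6 CPM against 63.1 to 83.2 CPM in the other KO-annotated clusters. The line of this cluster is thus uncertain. Values of KO-annotated cells below include it unless stated, and many, but not all, are also given without cells that had 2 UMIs of the 3 genes.

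With both lines together, 449 genes were past this threshold as higher in the mitotic class (5.94% of measured genes) and 295 were lower (3.91%). Within WT-annotated cells, 557 mitotic and 1113 low-score cells, 283 genes were higher (3.75%) and 318 lower (4.21%). Within KO-annotated cells, 816 mitotic and 1631 low-score cells, 108 were higher (1.43%) and 236 lower (3.12%), or 87 and 151 without the Acta2, Tagln and S100a4 cells. Of the 449 genes higher with both lines together, 111 were also higher within WT-annotated and 61 within KO-annotated cells. Of the 295 lower genes, 63 and 109 were also lower within these lines. Past the threshold in both lines were 33 genes that were higher (0.437%) and 32 that were lower (0.424%). The Y-linked gene Eif2s3y illustrates the share of the lines. It was at 36.9 CPM in the mitotic and 17.3 CPM in the low-score class, a log2 ratio of 1.05, but differed by 0.02 within WT-annotated and 0.12 within KO-annotated cells.

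Genes of mitosis outside the score were past the threshold in the higher direction more often than measured genes in general. Of 117 measured members of 5 lists, 55 were higher and 1 lower with both lines together, with a median log2 ratio of 0.31 against 0.04 over all measured genes. Within WT-annotated cells 51 of the 117 were higher and 1 lower, Ncapg2 of condensin II, with a median of 0.26. Within KO-annotated cells 18 were higher and none lower, with a median of 0.17, or 6 and 0.12 without the Acta2, Tagln and S100a4 cells. Of all measured genes 5.94% were higher and 3.91% lower with both lines together. The shares were 3.75% and 4.21% within WT-annotated and 1.43% and 3.12% within KO-annotated cells. Without those cells 87 of all 7553 measured genes were higher within KO-annotated cells. The median over all measured genes was -0.01 in WT-annotated cells. Whether the lines differ was not tested, as each line had 1 culture in the library. From here on, pairs of CPM values give the mitotic and then the low-score class, and numbers in parentheses after them, and the size of any difference, are log2 ratios.

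Among the mitotic kinases and their cyclins, 6 of 19 were higher within WT-annotated cells and 3 within KO-annotated cells. The shares of all measured genes were 3.75% and 1.43%. Without the Acta2, Tagln and S100a4 cells 5 and 1 of the 19 were higher. Cdk1 was at 279 CPM in the mitotic and 151 CPM in the low-score class of WT-annotated cells, or 0.88 (0.79 to 0.97) as a log2 ratio, and at 303 and 247 CPM in KO-annotated cells, or 0.29 (0.23 to 0.36). Ccnb2, a cyclin B that was not in the score, was at 77.4 and 72.4 CPM in WT-annotated cells (0.10) and at 93.7 and 73.3 CPM in KO-annotated cells (0.35). Ccna2, the cyclin of S phase and G2, differed by 0.24 and 0.17. Within WT-annotated cells Cdk1 thus differed more than these cyclins that partner it, and within KO-annotated cells it did not differ more than Ccnb2. Cdc25c, the phosphatase that activates Cdk1, differed by 0.73 and 0.37, and Cdkn3, a phosphatase that acts on Cdk1, by 0.41 and 0.48. In KO-annotated cells Cdkn3 remained past the threshold without the Acta2, Tagln and S100a4 cells (0.39) and Cdc25c did not (0.29).

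Spindle genes had the highest median of the 5 mitotic lists with both lines together, 0.39. Of 30 genes, 16 were higher within WT-annotated cells and 3 within KO-annotated cells, where 3.75% and 1.43% of all measured genes were higher. Without the Acta2, Tagln and S100a4 cells 16 and 1 of the 30 were higher. Nusap1 was at 143 CPM in the mitotic and 50.5 CPM in the low-score class of WT-annotated cells (1.49). It was at 125 and 98.7 CPM in KO-annotated cells (0.33), with a ratio of 0.26 without the Acta2, Tagln and S100a4 cells. The low-score class of the KO line thus held more Nusap1 than that of the WT line, while the mitotic classes were closer. The low-score cut was higher in the KO line, at 15.788 against 11.424, and its part in this difference was not tested. Tpx2, the activator of Aurka at the spindle, was at 226 and 139 CPM in WT-annotated cells (0.70) and at 233 and 199 CPM in KO-annotated cells (0.23). Kif11, the motor that separates the spindle poles, differed by 0.43 and 0.29. Kif18a, a kinesin that dampens chromosome movement, differed by 0.86 and 0.41.

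At the kinetochore and in chromosome structure, 13 of 26 and 6 of 20 genes were higher within WT-annotated cells and 5 and 4 within KO-annotated cells. The shares of all measured genes were 3.75% and 1.43%. Without the Acta2, Tagln and S100a4 cells 14 and 6 were higher within WT-annotated cells and 1 and 3 within KO-annotated cells. Cenpf, a kinetochore protein of G2 and mitosis, was at 257 and 130 CPM in WT-annotated cells (0.98) and at 293 and 216 CPM in KO-annotated cells (0.44). Aurkb, the kinase that corrects attachments, differed by 0.74 and 0.33, while its partner Birc5 differed by 0.13 and 0.11. Bub1, a checkpoint kinase, differed by 0.22 and 0.29. Members of 1 complex thus did not move alike. Top2a, which decatenates DNA, was at 673 and 387 CPM in WT-annotated cells (0.80) and at 697 and 596 CPM in KO-annotated cells (0.23). Smc4, a condensin subunit, differed by 0.44 and 0.43. The list of chromosome proteins also held Arl6ip1, a membrane-shaping protein, at 382 and 185 CPM (1.04) and at 394 and 305 CPM (0.37), and Kpna2, an importin that carries spindle factors, which differed by 1.01 and 0.45.

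Of 22 genes of mitotic exit and cytokinesis, 10 were higher within WT-annotated and 3 within KO-annotated cells. The shares of all measured genes were 3.75% and 1.43%. Without the Acta2, Tagln and S100a4 cells 10 and 0 of the 22 were higher. Prc1, which bundles the central spindle, was at 189 and 89.0 CPM in WT-annotated cells (1.07) and at 207 and 159 CPM in KO-annotated cells (0.38). Mki67, which coats mitotic chromosomes and was grouped with this list, differed by 0.51 and 0.37. Without the Acta2, Tagln and S100a4 cells the KO ratios were 0.318 for Prc1 and 0.316 for Mki67, just under the threshold.

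**Figure D3:**
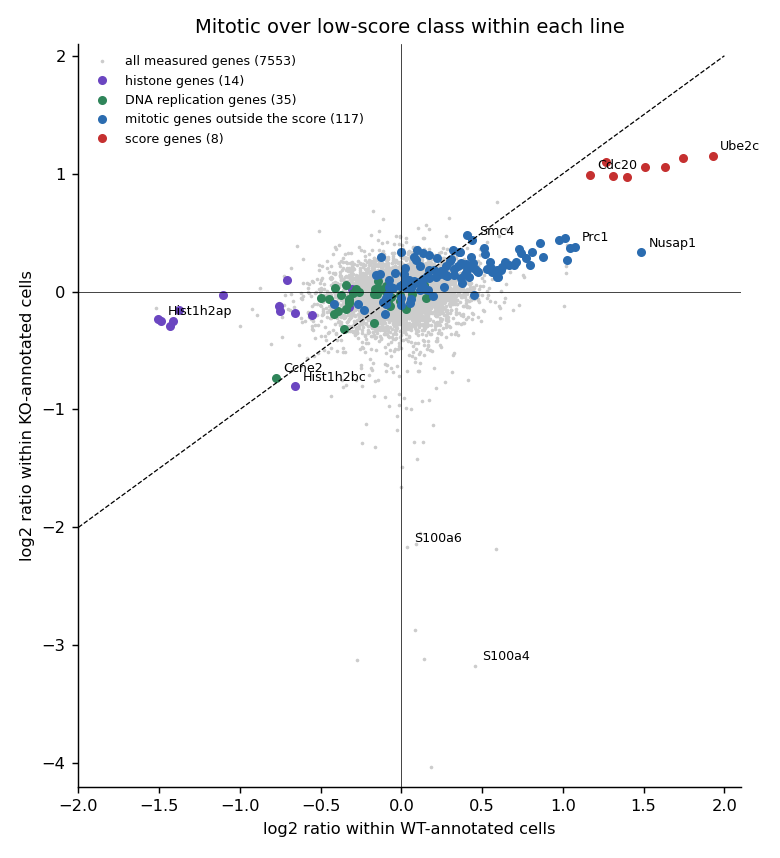
Log2 ratio of CPM + 1 of the mitotic over the low-score class within WT-annotated cells (horizontal axis) and within KO-annotated cells (vertical axis), each point a gene, for all 7553 measured genes and for 4 lists. The 8 score genes, which chose the classes, lie far to the upper right; most mitotic genes outside the score lie to the right of 0 and below equal values, and the histone genes lie on the left.

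The 33 genes higher in both lines were the 8 score genes, 14 genes of the mitotic lists and 11 others, all but the score genes named here after their values were seen. The 14 were Cdkn3, Cdc25c, Kif18a, Nusap1, Ckap2l, Cenpf, Aurkb, Ska1, Prc1, Mki67, Smc4, Kpna2, Arl6ip1 and Reep4. Without the Acta2, Tagln and S100a4 cells, 6 of these 14 stayed past the threshold in both lines, namely Cdkn3, Kif18a, Cenpf, Smc4, Kpna2 and Arl6ip1. Among the 11 others, Cdca2, which directs phosphatase 1 to chromosomes, was at 56.4 and 36.8 CPM in WT-annotated cells (0.60) and at 73.9 and 52.9 CPM in KO-annotated cells (0.47). Pimreg differed by 0.59 and 0.76 and Fam83d, a spindle protein, by 1.02 and 0.39, all with under 20 CPM. Arhgap19, a regulator of cytokinesis, differed by 0.48 and 0.36. The others were Gfod2, Gna15, Mettl27, Sesn3, 4930461G14Rik, Rep15 and Mpped2. Of the 33 genes, which include the 8 that chose the classes, 22 were higher in both lines without the Acta2, Tagln and S100a4 cells, 13 with cells thinned to 5000 UMIs, and 13 with the class taken from one of 2 random sets of UMIs. In the unused set of KO-annotated cells the score genes Ccnb1 (0.25), Plk1 (0.16) and Cenpe (0.18) were under the threshold. The other score genes were past it there.

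Histone transcripts showed the converse of the mitotic genes in WT-annotated cells. Of 14 measured histone genes, 9 were lower with both lines together (median -0.37), 13 within WT-annotated cells (-0.75) and 1 within KO-annotated cells (-0.17), the last being Hist1h2bc. Over all measured genes 3.91%, 4.21% and 3.12% were lower in these comparisons. Without the Acta2, Tagln and S100a4 cells 12 and 2 were lower, with medians of -0.75 and -0.21, and Hist1h2bc was no longer among those lower in KO-annotated cells (-0.28). Hist1h2ap was at 149 CPM in the mitotic and 420 CPM in the low-score class of WT-annotated cells (-1.49). It was at 277 and 329 CPM in KO-annotated cells (-0.25). Hist1h2ae differed by -1.41 and -0.25. The method captures poly(A) tails, which replication-dependent histone mRNAs lack for the most part, so these counts cover an unknown share of histone transcripts, and histone genes are near-identical copies between which reads may be divided.

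DNA replication genes differed less than histones. Of 35 measured genes none was higher, and 3 were lower with both lines together, 12 within WT-annotated cells and 1 within KO-annotated cells, with medians of -0.08, -0.17 and -0.03. Over all measured genes 3.91%, 4.21% and 3.12% were lower in these comparisons, so the KO count was near the general share. Ccne2, a cyclin of the G1 to S transition, was lower in both lines, at 13.7 and 24.2 CPM in WT-annotated cells (-0.77) and at 9.72 and 16.8 CPM in KO-annotated cells (-0.73). It was as low in KO-annotated cells without the Acta2, Tagln and S100a4 cells (-0.77). Ccne1, its more abundant relative, was at 348 and 372 CPM (-0.10) and at 583 and 577 CPM (0.01). Slbp, which binds histone mRNAs, differed by -0.50 and -0.06. Mcm4 and Mcm6, subunits of the replicative helicase, differed by -0.35 and -0.32 in WT-annotated cells and by -0.15 and -0.06 in KO-annotated cells, and Pcna, the sliding clamp, by -0.30 and -0.01.

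Among 14 measured regulators of G1, none passed the threshold within WT-annotated cells and 3 were lower within KO-annotated cells, Ccnd1, Ccnd2 and Cdkn1a. Over all measured genes 3.75% were higher and 4.21% lower within WT-annotated cells, and 3.12% were lower within KO-annotated cells. Ccnd2, a cyclin D, was at 14.8 and 43.4 CPM in KO-annotated cells (-1.49) and at 21.1 and 21.0 CPM in WT-annotated cells (0.01). Cdkn1a, an inhibitor of cyclin-dependent kinases, was at 55.4 and 94.7 CPM in KO-annotated cells (-0.76) and at 76.8 and 63.6 CPM in WT-annotated cells (0.27). Without the Acta2, Tagln and S100a4 cells the KO ratios were -0.30 for Ccnd2, -0.14 for Cdkn1a and -0.04 for Ccnd1, and no gene of the list passed the threshold. These 3 differences were thus held mostly by those cells.

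Along the score, the levels changed step by step. In 6 bins of the score within WT-annotated cells, from the lowest 30% to the highest 5%, Nusap1 ran from 50.5 through 64.6, 83.2, 108 and 133 to 165 CPM. Cdk1 ran from 151 to 308 CPM and Hist1h2ap from 420 to 104 CPM over the same bins. In KO-annotated cells Nusap1 ran from 98.7 CPM in the lowest bin to 124 CPM in the highest, Cdk1 from 247 to 334 CPM and Hist1h2ap from 329 to 264 CPM. The highest bins of the lines thus lay closer together in Cdk1 than the lowest bins. Hist1h2ap was below its WT level in the lowest KO bin and above it in the highest. Bins were percentiles of each line, and the lowest ended at a score of 15.788 in KO-annotated and 11.424 in WT-annotated cells. The part of these cuts in the comparison of bins between lines was not tested.

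**Figure D4:**
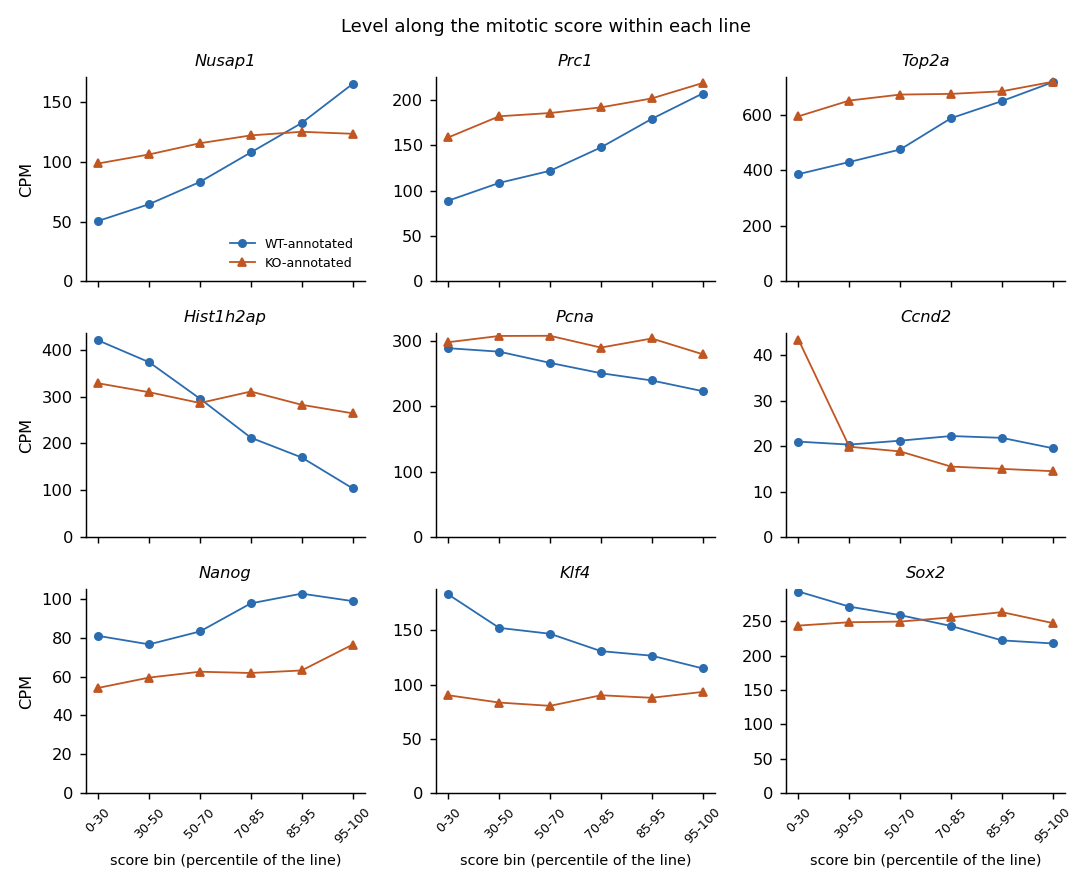
CPM (vertical axes, from 0) of 9 single genes in 6 bins of the mitotic score within each line (horizontal axes, percentile of the line), for WT-annotated and KO-annotated ESCs. Nusap1, Prc1 and Top2a run upward and Hist1h2ap downward with the score in WT-annotated cells, and these 4 are flatter in KO-annotated cells; Ccnd2 is highest in the lowest KO bin, at 43.4 CPM.

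Genes of general pluripotency differed little between the classes. Of 10 core genes none passed the threshold with both lines together or within KO-annotated cells, and 1, Sox2, was lower within WT-annotated cells. Over all measured genes 5.94% were higher and 3.91% lower with both lines together. The shares were 3.75% and 4.21% within WT-annotated and 1.43% and 3.12% within KO-annotated cells, so few of any 10 genes would pass. Pou5f1, which encodes Oct4, was at 90.6 and 98.4 CPM in WT-annotated cells (-0.12) and at 72.5 and 75.4 CPM in KO-annotated cells (-0.06). Sox2 was at 221 and 294 CPM in WT-annotated cells (-0.41) and at 259 and 244 CPM in KO-annotated cells (0.08). Utf1 differed by 0.07 and 0.12 and Sall4 by 0.11 and 0.08. The markers Pou5f1, Sox2, Sall4, Utf1 and Nanog were detected in both classes of both lines.

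Of 17 measured naïve genes, 2 were higher and 2 lower with both lines together, 2 higher and 4 lower within WT-annotated cells, and none passed the threshold within KO-annotated cells. Over all measured genes 5.94% were higher and 3.91% lower with both lines together. The shares were 3.75% and 4.21% within WT-annotated and 1.43% and 3.12% within KO-annotated cells, where few of any 17 genes would pass. Nanog, a naïve factor that varies between cells in serum, was at 101 and 80.9 CPM in WT-annotated cells (0.32) and at 67.3 and 54.1 CPM in KO-annotated cells (0.31). With both lines together its ratio was 0.08, and KO-annotated cells, with the lower levels, were more frequent in the mitotic class. Klf4, a target of LIF signalling, was at 123 and 183 CPM in WT-annotated cells (-0.57) and at 89.5 and 90.1 CPM in KO-annotated cells (-0.01). Tbx3 and Tfcp2l1 differed by -0.59 and -0.38 in WT-annotated cells and by 0.07 and 0.13 in KO-annotated cells. Zfp42, or Rex1, had a ratio of 0.47 with both lines together but of 0.01 and 0.16 within the lines. Esrrb differed by -0.22 and 0.03 and Klf2 by -0.25 and 0.10. The naïve genes thus had no common direction.

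Formative genes, which mark the stage the 48h-EpiLCs approach, were few in ESCs. Of 10 measured genes, 2 were lower with both lines together, 2 higher within WT-annotated cells and 1 lower within KO-annotated cells. Without the Acta2, Tagln and S100a4 cells 3 were higher within WT-annotated cells and 0 passed the threshold within KO-annotated cells. Over all measured genes 3.91% were lower with both lines together, 3.75% higher within WT-annotated cells and 3.12% lower within KO-annotated cells. Dnmt3a and Dnmt3b, the de novo DNA methyltransferases, differed by -0.01 and -0.08 in WT-annotated cells and by 0.01 and 0.07 in KO-annotated cells. Otx2 differed by 0.03 and 0.01, and Fgf5 was below 10 CPM and not measured. Tcf15, a transcription factor of cells leaving naïve pluripotency, was at 68.7 and 91.5 CPM with both lines together (-0.41). It was at 166 and 128 CPM within WT-annotated cells (0.38) and at 23.2 and 22.8 CPM within KO-annotated cells (0.03), so that its pooled direction did not hold in either line.

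Immediate early genes, which respond within minutes to growth factors and to cell handling, were past the threshold in the lower direction for some members. Of 14 measured genes, 9 were lower and 1 higher with both lines together (median -0.41), 6 lower within WT-annotated cells (-0.26) and 4 lower within KO-annotated cells (-0.21), where 3.91%, 4.21% and 3.12% of all measured genes were lower. In KO-annotated cells 2 were lower without the Acta2, Tagln and S100a4 cells (-0.14). Egr1, a target of ERK, was at 29.1 and 56.0 CPM in WT-annotated cells (-0.92) and at 39.7 and 44.0 CPM in KO-annotated cells (-0.14). Fos differed by -0.35 and -0.20. Fosb, at 8.50 CPM in the mitotic class of both lines, and Junb were past the threshold in both lines, with ratios of -0.63 and -0.45 for Fosb and -0.41 and -0.35 for Junb. Without the Acta2, Tagln and S100a4 cells Fosb was at -0.33 and Junb at -0.24 in KO-annotated cells, so Fosb kept its call and Junb did not. Ier3 differed by -0.18 and -0.67, and by -0.05 in KO-annotated cells without those cells.

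Signalling genes were past the threshold in both directions. Of 60 measured genes of the LIF, FGF, Nodal, BMP, Wnt, Notch and Hippo pathways, 3 were higher and 5 lower with both lines together, 2 higher and 9 lower within WT-annotated cells, and 1 higher and 6 lower within KO-annotated cells. Of all measured genes 5.94% were higher and 3.91% lower with both lines together, 3.75% and 4.21% within WT-annotated and 1.43% and 3.12% within KO-annotated cells. The signalling genes that passed the threshold in both lines were lower, among them Lefty1, Id3 and Fzd7, which were named after their values were seen. Lefty1, an inhibitor and target of Nodal, was at 54.1 and 74.3 CPM in WT-annotated cells (-0.45) and at 73.6 and 94.1 CPM in KO-annotated cells (-0.35). Id3, a target of BMP, was at 28.2 and 39.3 CPM (-0.47) and at 61.8 and 82.7 CPM (-0.41). With both lines together their ratios were -0.17 and -0.01, and KO-annotated cells had the higher levels. Fzd7, a Wnt receptor, differed by -0.47 and -0.38 at under 20 CPM. Without the Acta2, Tagln and S100a4 cells, Lefty1 (-0.50) and Fzd7 (-0.33) stayed lower in KO-annotated cells and Id3 (-0.24) did not. The Lefty1 and Id3 ratios were -0.08 and -0.18 in WT-annotated 48h-EpiLCs, which were not past the threshold.

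Other signalling genes had unlike ratios in the lines. Socs3, the feedback inhibitor of LIF signalling, was at 29.96 and 40.5 CPM in WT-annotated cells (-0.42) and at 26.2 and 20.8 CPM in KO-annotated cells, where its ratio of 0.319 was just under the threshold. Dusp4, a phosphatase induced by ERK, differed by 0.50 and -0.03, and Spry2, an inhibitor of FGF signalling, by -0.35 and 0.13. Axin2, a Wnt target, had a ratio of 0.68 with both lines together but of 0.07 and 0.21 within the lines, and Bmp4 had ratios of 0.38, -0.18 and 0.35. Lef1, a Wnt effector named after its value was seen, differed by 0.55 and -0.08. The difference between the lines was not tested for these genes.

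Genes of the Ccr4-Not complex did not pass the threshold with both lines together, 0 of 26 in either direction. Over all measured genes 5.94% were higher and 3.91% lower in that comparison. Within WT-annotated cells 1 of the 26 was lower and within KO-annotated cells 0, and none was higher. Of all measured genes 4.21% and 3.12% were lower there. Without the Acta2, Tagln and S100a4 cells 1 of the 26 was lower in each line. Cnot8 was at 40.0 and 47.5 CPM in WT-annotated cells (-0.24) and at 70.2 and 77.5 CPM in KO-annotated cells (-0.14), and these 3′ counts do not report the edited exon 2. Cnot7, its paralog, differed by -0.08 and -0.13. Ribosomal protein genes had medians of -0.04 with both lines together, 0.01 within WT-annotated and 0.01 within KO-annotated cells. With both lines together 6 of 84 were lower, where 3.91% of all measured genes were lower. Acta2, Tagln, S100a4 and S100a6 had the largest negative ratios with both lines together among the genes named by rule. S100a6 was at 177 and 801 CPM in KO-annotated cells (-2.17) and at 144 and 140 CPM in WT-annotated cells (0.04), and its KO ratio was -0.05 without the cells that had 2 UMIs of Acta2, Tagln and S100a4.

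**Figure D5:**
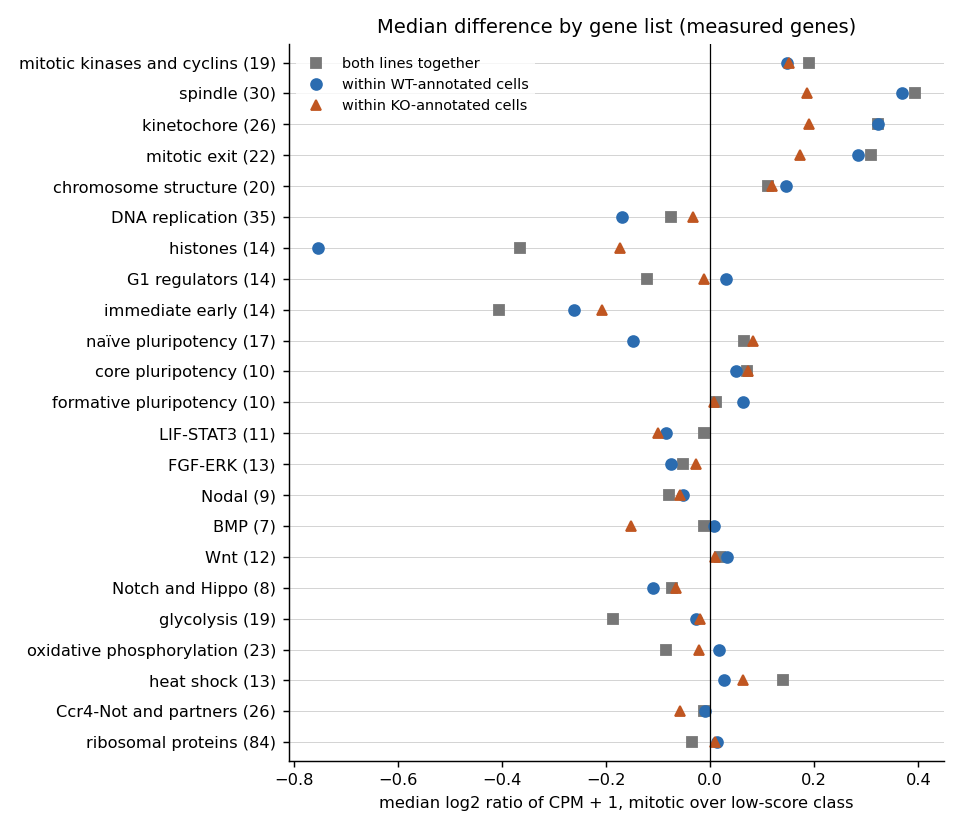
Median log2 ratio of CPM + 1 of the mitotic over the low-score class (horizontal axis) for each gene list (number of measured genes in parentheses), with both lines together, within WT-annotated cells and within KO-annotated cells. The mitotic lists lie to the right of 0, histones lie farthest to the left in WT-annotated cells at -0.75, and the naïve, core and signalling lists lie near 0.

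The 32 genes lower in both lines held few of the listed groups, and were named after their values were seen. Beside Ccne2, Hist1h2bc, Fosb, Junb and the signalling genes above they included Cebpb, a stress-responsive transcription factor, Serpinh1, a collagen chaperone, Mbd4, a DNA glycosylase, Cd24a, a surface glycoprotein, and Igf2bp2, an RNA-binding protein. Serpinh1 was at 9.14 and 14.2 CPM in WT-annotated cells (-0.59) and at 24.2 and 36.2 CPM in KO-annotated cells (-0.56), but the KO ratio was 0.05 without the Acta2, Tagln and S100a4 cells. Without those cells 18 of the 32 stayed lower in both lines, among them Ccne2, Lefty1, Fzd7, Cd24a, Mbd4 and Igf2bp2. With cells thinned to 5000 UMIs 10 of the 32 stayed lower in both lines, and 16 did with the class taken from one of 2 random sets of UMIs. Of the 32 genes, 8 were also lower in the WT-annotated and 6 in the KO-annotated mitotic class of the 48h-EpiLCs, where 4.67% and 2.93% of all measured genes were lower.

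In 48h-EpiLCs the same rule gave 1390 mitotic and 2780 low-score cells of 9267. Within WT-annotated 48h-EpiLCs 321 genes were higher (4.25%) and 353 lower (4.67%), and within KO-annotated ones 165 were higher (2.18%) and 221 lower (2.93%). Of the 117 mitotic genes outside the score, 64 were higher and 1 lower within WT-annotated 48h-EpiLCs (median 0.35) and 28 higher and 1 lower within KO-annotated ones (0.16). Nusap1 differed by 1.65 and 0.52, Prc1 by 1.21 and 0.54 and Cdk1 by 0.89 and 0.38. Histones had medians of -0.94 and -0.63, with 13 and 11 of 14 lower, against 13 and 1 of 14 in the ESC library. Over the 117 mitotic genes the ratios in ESCs and 48h-EpiLCs had a Pearson correlation of 0.882 and a Spearman correlation of 0.858 in WT-annotated cells and of 0.787 and 0.774 in KO-annotated cells. These are descriptions across genes, which are not independent, and the libraries share the assay, the lines and the base level of each gene.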

How the data were processed

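The deposited matrices held whole-number UMI counts per gene and cell, which the authors made with Cell Ranger 3.0.2 on mm10 with the tdTomato coding sequence added, from 10x Genomics 3′ libraries sequenced on a NovaSeq instrument. Of 2 libraries, the ESC library held 144584246 UMIs in 13184 barcodes, a median of 10965.5 per barcode. Gene names came from the matrices, and 619 of 624 list symbols were found.

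Counts were summed over the cells of each class and scaled to CPM, with log2(CPM + 1) ratios and exact 95% binomial intervals conditional on the summed counts, for counting error only. No test was made, as cells of 1 library are not replicates. Doublets were kept, as the rule for the classes holds no step on them, and a doublet score from simulated pairs of cells was used in an alternative. Line annotation used Leiden clusters (scanpy 1.11.5, leidenalg 0.10.2; 2000 variable genes, 30 components, 15 neighbours, resolution 1.0) compared by tdTomato and Y-linked transcripts, and was added after the data were seen, like the random division of UMIs and the alternative without cells that had 2 UMIs of Acta2, Tagln and S100a4. Scripts were tested on simulated data.

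The members and the lists were chosen with earlier results of these data known. Named genes were the 8 score genes, the 15 highest and 15 lowest pooled ratios at a mean of at least 20 CPM, up to 4 members of each list past a log2 ratio of 0.32 in each direction with its 2 most abundant members, and a set of pluripotency, Myc and deadenylation genes. Other genes were named after their values were seen. Promoters were RefSeq sequences on GRCm38.p6, and matches in sets with a promoter for under 80% of genes were not used.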

Additional observations from a re-analysis of the deposited data

How the results depend on the processing

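No paired analysis was possible because each stage had 1 library and no replicate number was shared by replicates. No alternative gave the direction of the 117 mitotic genes or of the immediate early genes the opposite sign, with medians of 0.132 to 0.316 and -0.445 to -0.179 over the alternatives. The values within each line, the random division of UMIs and the leaving out of cells with 2 UMIs of Acta2, Tagln and S100a4 were chosen after seeing the data. The filter and fold alternatives give no value for single genes, and thinning and rescaling give none for UMIs per cell.

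The report gave 449 genes higher in the mitotic class and 295 genes lower in the mitotic class. Higher genes were 272 within WT-annotated cells and 122 within KO-annotated cells, with genes filtered on each line's own level. Counts higher and lower were 267 and 181 with a score of Cenpa, Ube2c, Hmmr and Cenpe, 50 and 44 against all other cells, 922 and 1046 in cells with a tdTomato UMI (73 mitotic cells, 486 in all), 1301 and 1323 with no filter, 126 and 85 at a mean of 50 CPM and 69 and 67 at a fold of 1.5, and 211 were higher in cells with 2 Y-linked UMIs and no tdTomato. Of the genes in both lines, 22, 13 and 13 of the 33 higher and 18, 10 and 16 of the 32 lower remained in both lines without the Acta2, Tagln and S100a4 cells, with thinning and with the random sets of UMIs. Genes lower in both lines were 58 with the class from one of 2 random sets of UMIs, and genes past the fold of 1.5 in both lines were 9 higher and 3 lower. Scaling by TMM shifted all ratios by 0.0385.

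The median of mitotic genes outside the score was 0.171 within KO-annotated cells, 0.132 against all other cells and 0.152 in cells with 2 Y-linked UMIs. The median of replication genes was -0.169 within WT-annotated cells, -0.178 in cells with a tdTomato UMI and 0.0111 with a score of Ccnb1, Cdc20, Plk1 and Aurka. The median of naive genes was -0.148 within WT-annotated cells and -0.227 in cells with a tdTomato UMI. The median of ribosomal protein genes, -0.0357 in the report, was 0.0123 within WT-annotated cells, 0.0092 within KO-annotated cells, -0.0742 with TMM, -0.0172 with the score of Cenpa, Ube2c, Hmmr and Cenpe, -0.0048 against all other cells, 0.0062 in cells with a tdTomato UMI and -0.0103 in cells with 2 Y-linked UMIs. The ratio of UMIs per cell was 1.2885 within WT-annotated cells, 1.0102 with the rule within 3 depth ranges, 1.0567 with the score of Ccnb1, Cdc20, Plk1 and Aurka, 1.0337 against all other cells, 1.3089 in cells with a tdTomato UMI and 1.0659 in cells with 2 Y-linked UMIs. For these changes the cause was not tested.

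Named genes past the threshold with both lines together that changed sign within WT-annotated cells had log2 ratios there of Ddx3y -0.089, BC004004 -0.13, Rhox6 -0.0087, Rgcc -0.17, S100a4 0.46, Acta2 0.14, Tagln 0.082, S100a6 0.036, Cald1 0.11, Ccnd2 0.0059, Timp1 0.10, Slc25a13 0.018, Gc 0.12, Cdkn1a 0.27, Sox4 0.11, Tcf15 0.38, Bmp4 -0.18, Porcn 0.0044, Cldn7 -0.16, Vim 0.017, Uty -0.22. Within KO-annotated cells these were Ipp -0.031, Nr1h5 -0.12, Tcf15 0.029, Socs3 0.32, Dusp4 -0.027, Slc2a3 0.046, Bnip3 0.10. In cells with a tdTomato UMI they were Eif2s3y -0.66, BC023719 -0.50, Ddx3y -1.98, BC004004 -0.071, Rgcc -1.15, Phf11d -0.51, Nr1h5 -0.24, S100a4 0.77, Acta2 1.22, Tagln 0.99, S100a6 0.22, Cald1 0.34, Myo1f 0.029, Crabp1 0.58, Slc25a13 0.036, Cenpm 0.0076, Nr5a2 -0.42, Tcf15 0.29, Bmp4 -0.73, Axin2 -0.66, Klf6 -0.049, Cldn7 -0.79, Vim 0.13. In cells with 2 Y-linked UMIs and no tdTomato they were Ipp -0.027, Nr1h5 -0.11, Klf4 0.035, Socs3 0.23, Dusp4 -0.12, Slc2a3 0.069. Without cells with 2 UMIs of Acta2, Tagln and S100a4 they were S100a4 0.26, Tagln 0.16, Crabp1 0.018. No named gene past the threshold changed sign under the other alternatives.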

Other observations

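The other genes with the highest ratios over both lines together were genes that differed between the lines more than within them. Of the 15 highest by rule, Ipp was at 68.7 CPM in the mitotic and 37.7 CPM in the low-score class (0.85) and differed by 0.19 within WT-annotated and -0.03 within KO-annotated cells. Apoc2, which encodes an apolipoprotein, had a ratio of 0.76 over both lines and of 0.05 and 0.07 within them. BC023719 had ratios of 1.03, 0.67 and 0.17, BC004004 of 0.82, -0.13 and 0.11, and Nr1h5 of 0.74, 0.09 and -0.12. Rhox6, a homeobox gene, had ratios of 0.81, -0.01 and 0.46 and Phf11d of 0.75, 0.11 and 0.35.

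Several of the 15 lowest by rule were past the threshold within KO-annotated and not within WT-annotated cells. Spp1, a secreted phosphoprotein, had ratios of -0.87 over both lines, -0.22 within WT-annotated and -1.12 within KO-annotated cells, Lgals1, a galectin, of -0.85, -0.16 and -1.32, and Timp1, a protease inhibitor, of -0.85, 0.10 and -1.42. Without the cells that had 2 UMIs of Acta2, Tagln and S100a4 the KO ratios were -0.16 for Spp1, -0.02 for Lgals1 and -0.22 for Timp1. The keratin Krt18 had a KO ratio of -0.71 with them and of -0.99 without them, at 31.3 and 63.4 CPM.

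Lists of metabolism and stress had between 0 and 3 genes each past the threshold within a line, where 3.75% of all measured genes were higher and 4.21% lower in WT-annotated cells and 1.43% and 3.12% in KO-annotated cells. Of 19 glycolysis genes 2 were lower over both lines (median -0.19) and none within either line (-0.03 and -0.02). Of 23 genes of oxidative phosphorylation none passed the threshold in any of these comparisons. Of 13 measured heat shock genes none passed it either. Of 14 genes of the integrated stress response 2 were lower over both lines and within WT-annotated cells, and 1 was higher and 2 lower within KO-annotated cells, with medians of -0.11, -0.10 and -0.07. Without the Acta2, Tagln and S100a4 cells 3 were lower within WT-annotated cells, and 1 was higher and 0 lower within KO-annotated cells. Of 15 p53 targets 1 was lower over both lines, 2 were higher within WT-annotated cells and 2 lower within KO-annotated cells. Without the Acta2, Tagln and S100a4 cells 2 were higher and 0 lower in each line. The 2-cell-like markers summed to 10.9 CPM in the mitotic and 7.84 CPM in the low-score class and none was measured.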
